A study of Mus musculus with 8 samples.

Results

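The 8 genes described here encode matrix proteases and protein inhibitors of such proteases: the matrix metalloproteinases Mmp2, Mmp3, Mmp9 and Mmp14, the tissue inhibitors of metalloproteinases Timp1, Timp2 and Timp3, and the aggrecanase-type protease Adamts1. They were taken by symbol, as all probe sets of the deposited array table annotated to exactly 1 of these names. This gave 20 of the 45037 probe sets in the table, and 8 of the 18193 genes it names. The samples were whole aortas of 4 month-old mice, 4 arrays per group. The controls were labelled SRF-flex2neo and described as littermates. The mutants were labelled SRF-flex2neo -SM22CreERT2ki/+ and described as a smooth muscle knockout of SRF, serum response factor, a transcription factor of muscle and cytoskeleton genes. In the mutants a tamoxifen-dependent Cre recombinase sits in the gene of SM22 (Tagln), so the Cre follows that promoter, and the label gives the controls no Cre allele. Both groups received 1 mg of tamoxifen into the peritoneum for 3 days and were studied 8 days after injection. By the last number of their titles the arrays fall into 2 sets of 4: controls 1 and 2 and mutants 1 and 2 in set 1, and controls 3 and 4 and mutants 3 and 4 in set 2. No label ties an array to its own mouse. The p-values set a difference against the variation left between these arrays, and that variation may be technical.

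Matrix metalloproteinases are zinc-dependent enzymes that are made as inactive precursors and cut proteins of the extracellular matrix. Tissue inhibitors of metalloproteinases bind the active site of the enzymes and block it. Timp2 has a further role, since together with the membrane-bound protease Mmp14 it brings the precursor of Mmp2 to the cell surface, where Mmp14 activates it. In arteries these enzymes act on collagens, elastin and proteoglycans of the wall, and their activity also depends on precursor cleavage and secretion, which messenger RNA levels do not measure.

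The promoters of 3 members are printed as examples, which between them hold each motif found among the members. The members with the highest share of G and C, named below, are not printed. Mmp3 and Mmp14 are a secreted and a membrane-bound protease, and Timp1 encodes an inhibitor of Mmp3. The sequences are the 250 bases before the RefSeq gene start (build GRCm38.p6), 5′ to 3′ on the strand of the gene. They lie at chr9:7445572-7445821 for Mmp3, chr14:54431348-54431597 for Mmp14 and chrX:20869916-20870165 for Timp1, all on the plus strand. Capitals mark matches, on either strand, to the AP-1 motif TGANTCA with C or G at the N, the TATA motif TATAAA and the GC box GGGCGG.
Mmp3: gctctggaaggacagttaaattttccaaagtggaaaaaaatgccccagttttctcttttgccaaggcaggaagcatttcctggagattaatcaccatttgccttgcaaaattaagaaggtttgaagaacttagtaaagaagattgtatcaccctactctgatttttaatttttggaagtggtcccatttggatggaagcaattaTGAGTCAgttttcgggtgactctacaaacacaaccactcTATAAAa
Mmp14: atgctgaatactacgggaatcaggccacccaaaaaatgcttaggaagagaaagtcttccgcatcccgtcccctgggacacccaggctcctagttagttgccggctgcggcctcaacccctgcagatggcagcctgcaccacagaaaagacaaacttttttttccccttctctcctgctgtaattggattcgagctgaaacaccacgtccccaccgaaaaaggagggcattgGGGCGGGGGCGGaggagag
Timp1: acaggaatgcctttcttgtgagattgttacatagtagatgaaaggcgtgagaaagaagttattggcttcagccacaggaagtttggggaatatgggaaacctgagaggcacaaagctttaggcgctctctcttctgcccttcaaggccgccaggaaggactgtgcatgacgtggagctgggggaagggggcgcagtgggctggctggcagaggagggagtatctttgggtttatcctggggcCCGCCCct

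The Mmp3 window held an AP-1 match from 46 to 40 bases before the start and a TATA match from 7 to 2 bases before it. AP-1 is the dimer of Fos and Jun proteins. The AP-1 motif was found in 1 of the 6 members with a promoter window and in 4.46% of the 32851 windows of this length in the RefSeq table. The TATA motif was in 2 of the 6 (Mmp3 and Adamts1) and in 12.4% of all windows. The GC box was in the other 5 members, Mmp14, Timp1, Timp2, Timp3 and Adamts1, and in 32.7% of all windows. The Mmp14 window held 2 adjoining GC boxes, and the Timp1 window held 1, on the opposite strand. In base composition Mmp3 stood at 37.6% G and C, against 54.4% in Timp1, 55.2% in Mmp14 and 65.6% to 68.0% in Timp2, Timp3 and Adamts1, where the median over all windows was 52.4%. The CArG box, the element that SRF binds, was in 0 of the 6 windows and in 1.47% of all windows. These matches describe letters in a window, not binding, and say nothing of sites elsewhere in the genes.

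The targeted gene Srf was at 10.52, 10.20, 10.15 and 10.34 in controls 1 to 4 and 10.21, 9.54, 10.32 and 10.34 in mutants 1 to 4 (log2 values). Its groups overlapped, with a difference of -0.20 (SE 0.19, limma adjusted p = 0.6861). The position of the probe set relative to the deleted part is unknown here, and the value does not check the deletion. Tagln, the gene that carries the Cre in mutants, differed by -0.29 (limma adjusted p = 0.3754). Every mutant (14.89 to 15.12) was below every control (15.29 to 15.37) for Tagln, which held for 1.57% of all probe sets tested. Array medians ran from 3.72 to 3.98, and the number of arrays limits the precision of every value. Mutant 2 stood apart, with a correlation of 0.961 to 0.974 with the other arrays over the whole table, against 0.983 to 0.997 among the other 7. Smooth muscle, fibroblast, macrophage and endothelial markers were all measured, and no mesothelial marker was tested. Endothelial markers were higher in mutants in 10 of 10 (median 0.97), adipocyte markers in 5 of 5 (median 1.17) and lymphocyte markers in 2 of 4 (median 0.02), with 0 passing the threshold. The endothelial median was 1.51 in set 1, 0.54 in set 2 and 0.75 without mutant 2, with 10 of 10 higher in each. The adipocyte median was 2.77 in set 1 and -0.40 in set 2, where 0 of 5 were higher, and 0.48 without mutant 2. Mutant 1 was at 13.10 for Ighm, the immunoglobulin heavy chain gene among the lymphocyte markers, against 6.74 to 6.84 in the other 7 arrays, a gene named after its values were seen. The other lymphocyte markers tested were dim, at 3.04 to 3.88 in all arrays. The count and median of the lymphocyte markers therefore say little about lymphocytes.

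None of the 8 genes passed the threshold between mutant and control aorta. Mmp2 and Mmp3 had higher mean levels in mutants in both array sets, Timp1 also had a higher mean level but with a wide spread, and Mmp14, Timp2, Timp3 and Adamts1 had means within 0.20 log2 units of the controls in every probe set tested. Values are log2 expression values, so a difference of 1 is a 2-fold change. Of the 20 probe sets, 18 passed the filter on dim probe sets and were tested, and each of the 8 genes kept at least 1. With limma, 0 of the 18 had an adjusted p under 0.05, and over all 27023 probe sets tested the share was 0%. The lowest adjusted p of a member was 0.4315. At an unadjusted p under 0.05 there were 3 of the 18, the 2 probe sets of Mmp2 and that of Mmp3, all higher in mutants, where 9.55% of all probe sets tested were under that value, 4.5% higher and 5.05% lower. In 0 of the 18 did every mutant lie above every control (1.43% of all probe sets tested), and in 0 did every mutant lie below every control (1.57%). By the brightest probe set of each gene, 5 of the 8 genes were higher in mutants, against 44.9% of all genes tested, and the median difference was 0.00, against -0.02 over all genes tested.

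**Figure D1:**
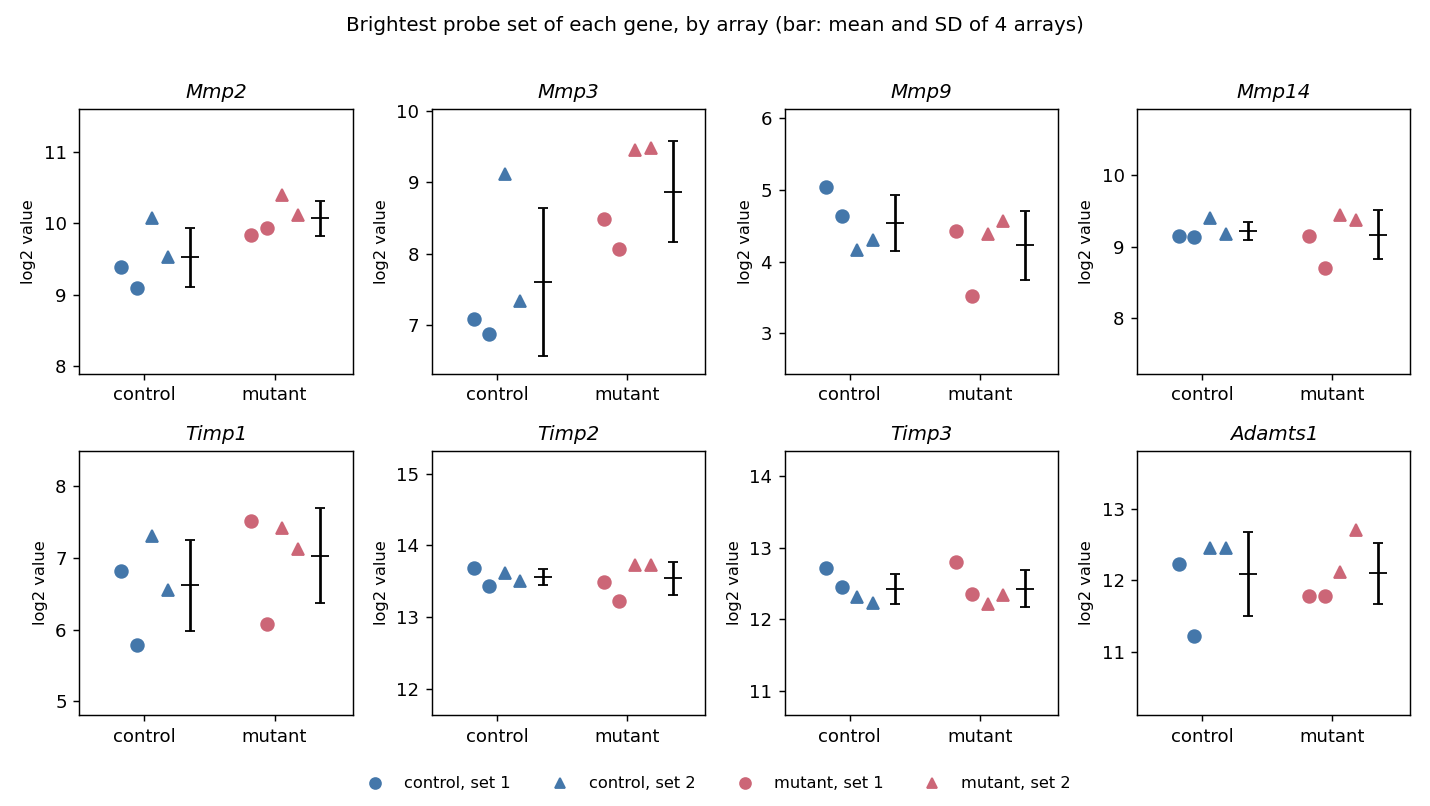
Log2 value of the brightest probe set of each gene in each of the 8 arrays, with the group mean and SD of 4 arrays at the right of each group. All panels span the same number of log2 units. Control 3 lies among the mutants for Mmp2 and above mutants 1 and 2, which are of the other set, for Mmp3. Within each set both mutants lie above both controls for Mmp2 and Mmp3. Mutant 2 is the lowest array for Mmp9 and Mmp14.

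The gelatinase Mmp2 cleaves denatured collagen and basement membrane collagen. Its brightest probe set was at 9.39, 9.09, 10.08 and 9.53 in controls 1 to 4 and at 9.84, 9.94, 10.40 and 10.11 in mutants 1 to 4. All mutants lay above controls 1, 2 and 4, and control 3 lay inside the range of the mutants. Control 3 exceeded mutants 1 and 2, which are of the other set. Within each set both mutants lay above both controls. The means were 9.52 ± 0.41 in controls and 10.07 ± 0.25 in mutants (SD, n = 4 each), a 1.46-fold difference. On the log2 scale this was 0.55 (SE 0.15, 95% confidence interval 0.20 to 0.90, limma adjusted p = 0.4315). The second probe set of Mmp2 had controls at 8.51, 8.10, 9.20 and 8.40 and mutants at 9.02, 9.02, 9.64 and 9.32. Here too control 3 was the control within the mutant range, and within each set both mutants lay above both controls. Its difference was 0.70 (SE 0.19, limma adjusted p = 0.4321). By set, the brighter probe set differed by 0.65 (set 1) and 0.45 (set 2), and the other by 0.72 and 0.68.

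Mmp3, or stromelysin 1, cleaves proteoglycans, fibronectin and laminin and can activate other metalloproteinase precursors. It was at 7.08, 6.87, 9.12 and 7.34 in controls and at 8.48, 8.07, 9.45 and 9.47 in mutants. Controls 1, 2 and 4 were below all mutants, while control 3 exceeded mutants 1 and 2, which are of the other set. Within each set both mutants lay above both controls. The means were 7.60 ± 1.03 and 8.87 ± 0.70 (SD, n = 4 each), a 2.40-fold difference. The difference of 1.26 (SE 0.35, 95% confidence interval 0.43 to 2.10, limma adjusted p = 0.4423) was 1.30 in set 1 and 1.23 in set 2. It was 1.63 without control 3, where the limma adjusted p was 0.1028, and 0.92 without control 4, where it was 0.6809. The larger SD of the controls came with control 3.

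Mmp2 and Mmp3 ran alongside the markers of fibroblasts, which make the matrix of the adventitia, across the arrays. Of the 12 fibroblast markers listed, 11 were tested, 10 were higher in mutants and 0 passed the threshold, with a median difference of 1.01. The summed level of these markers ran from 14.87 to 15.71 in controls and from 15.58 to 15.88 in mutants (log2 of the sum). Relative to the mean of all arrays, their average was -0.63, -0.90, 0.36 and -0.67 in controls 1 to 4 and 0.43, 0.30, 0.62 and 0.49 in mutants 1 to 4. Control 3 was thus the only control within the range of the mutants, as for Mmp2 and Mmp3. It lay below both mutants of its own set, and in each set both mutants lay above both controls. Macrophage markers were higher in 11 of 11 (median 1.01, 0 passing), and their summed level was 10.04 to 11.13 in controls and 11.15 to 11.97 in mutants. The macrophage median was 1.72 in set 1 and 0.445 in set 2, where 10 of 11 were higher. With quantile normalization or median centring 10 of 11 macrophage markers were higher. Fcgr1 and Cd68, 2 of these markers named after their values were seen, were dim. Fcgr1 was at 3.35 to 3.44 in every array (difference 0.005), and Cd68 at 3.08 to 3.14 outside mutants 1 and 2. Smooth muscle markers were lower in 10 of 10, with a median of -0.28 and 0 passing, and summed levels of 17.31 to 17.40 in controls and 17.02 to 17.17 in mutants. The smooth muscle list includes Tagln, which carries the Cre in mutants, and SRF is a transcription factor of muscle genes. In this design the list is therefore no measure of smooth muscle content alone. In whole aorta a changed share of cells and a changed amount of RNA per cell cannot be told apart, and the part of these cell types in the difference of Mmp2 and Mmp3 was not tested.

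**Figure D2:**
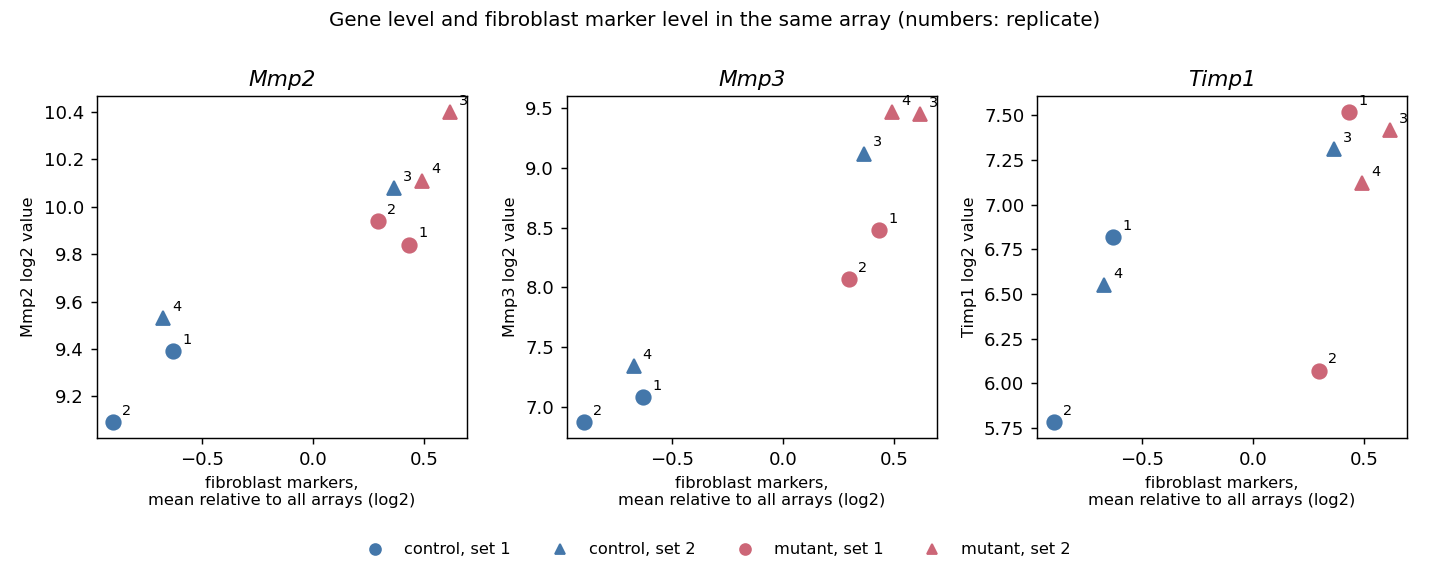
Log2 value of Mmp2, Mmp3 and Timp1 (vertical) against the average of 11 fibroblast markers relative to the mean of all arrays (horizontal, log2) in the same array; numbers are replicates. For Mmp2 and Mmp3, controls 1, 2 and 4 sit at the lower left and control 3 with the mutants at the upper right, and for Timp1 mutant 2 (6.07) departs from this order.

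Mmp9, the second gelatinase, is stored by neutrophils and made by activated macrophages. It was dim, at 5.04, 4.64, 4.16 and 4.30 in controls and 4.43, 3.52, 4.38 and 4.57 in mutants. The groups overlapped, with mutant 2 lowest of all arrays. The difference was -0.31 (SE 0.29, limma adjusted p = 0.6911), and it had opposite signs in the sets, -0.86 in set 1 and 0.24 in set 2. Without mutant 2 it was -0.02 and without control 1 it was -0.12, while leaving out each other array gave -0.46 to -0.28. The other probe set of Mmp9 was at 1.78 to 1.93 in all arrays and was left out of the test as dim. Of the 10 neutrophil markers listed, S100a8 and S100a9 were tested, and the defining granule genes Mpo, Elane, Ltf, Camp and Ngp were not among those tested. The summed level of the 2 was 4.22 to 4.37 in controls and 4.18 to 4.595 in mutants.

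Mmp14, the membrane-type protease that activates the Mmp2 precursor, was at 9.15, 9.14, 9.40 and 9.18 in controls and at 9.15, 8.70, 9.45 and 9.38 in mutants. Apart from mutant 2, the lowest array, the groups had nearly the same values. The difference was -0.05 (SE 0.13, 95% confidence interval -0.35 to 0.25, limma adjusted p = 0.8942), and 0.08 without mutant 2. The 2 dimmer probe sets differed by -0.20 (SE 0.20) and 0.01 (SE 0.21). Mutant 2 was also the array that correlated least with the others over the whole table.

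Adamts1 cleaves the large proteoglycans versican and aggrecan. It was at 12.23, 11.23, 12.46 and 12.46 in controls and 11.79, 11.79, 12.12 and 12.70 in mutants. Control 2 was the lowest and mutant 4 the highest array, and the rest interleaved. The difference was 0.00 (SE 0.22, 95% confidence interval -0.53 to 0.54, limma adjusted p = 0.9943). Leaving out control 2 gave -0.21 and leaving out control 1 gave 0.19.

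Among the inhibitors, Timp1 varied most between arrays in its brightest probe set. It is a secreted inhibitor that blocks many metalloproteinases and is induced in stressed tissue. It was at 6.82, 5.78, 7.31 and 6.55 in controls and at 7.52, 6.07, 7.42 and 7.12 in mutants. Mutants 1, 3 and 4 were in the upper part of the range, and mutant 2 was below 3 of the 4 controls. The means were 6.62 ± 0.64 and 7.03 ± 0.66 (SD, n = 4 each), and the difference of 0.42 (SE 0.38, 95% confidence interval -0.49 to 1.32, limma adjusted p = 0.6806) lay within the spread between arrays. It was 0.69 without mutant 2 and 0.11 without mutant 1.

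Timp2, the inhibitor that takes part in Mmp2 activation, was read by 6 probe sets, of which 5 were tested. The brightest was at 13.69, 13.43, 13.61 and 13.50 in controls and 13.49, 13.23, 13.72 and 13.72 in mutants. The groups overlapped, with mutants 1 and 2 below the control mean and mutants 3 and 4 above every control. The difference was -0.02 (SE 0.11, 95% confidence interval -0.28 to 0.24, limma adjusted p = 0.9572). The 5 tested probe sets differed by -0.14 to 0.16, 3 up and 2 down. All 5 were below 0 in set 1 (-0.44 to -0.03) and above 0 in set 2 (0.15 to 0.36). The remaining probe set was at 2.34 to 2.59 and was not tested.

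Timp3, which is held in the matrix after secretion and also inhibits proteases of the Adamts family, was read by 4 probe sets. The brightest was at 12.71, 12.45, 12.31 and 12.22 in controls and 12.80, 12.35, 12.21 and 12.34 in mutants. In each set the 2 mutants lay on either side of the 2 controls. Its difference was 0.00 (SE 0.11, 95% confidence interval -0.26 to 0.27, limma adjusted p = 0.9943). The other 3 probe sets differed by 0.02, -0.17 and -0.05, with SE of 0.09 to 0.20.

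**Figure D3:**
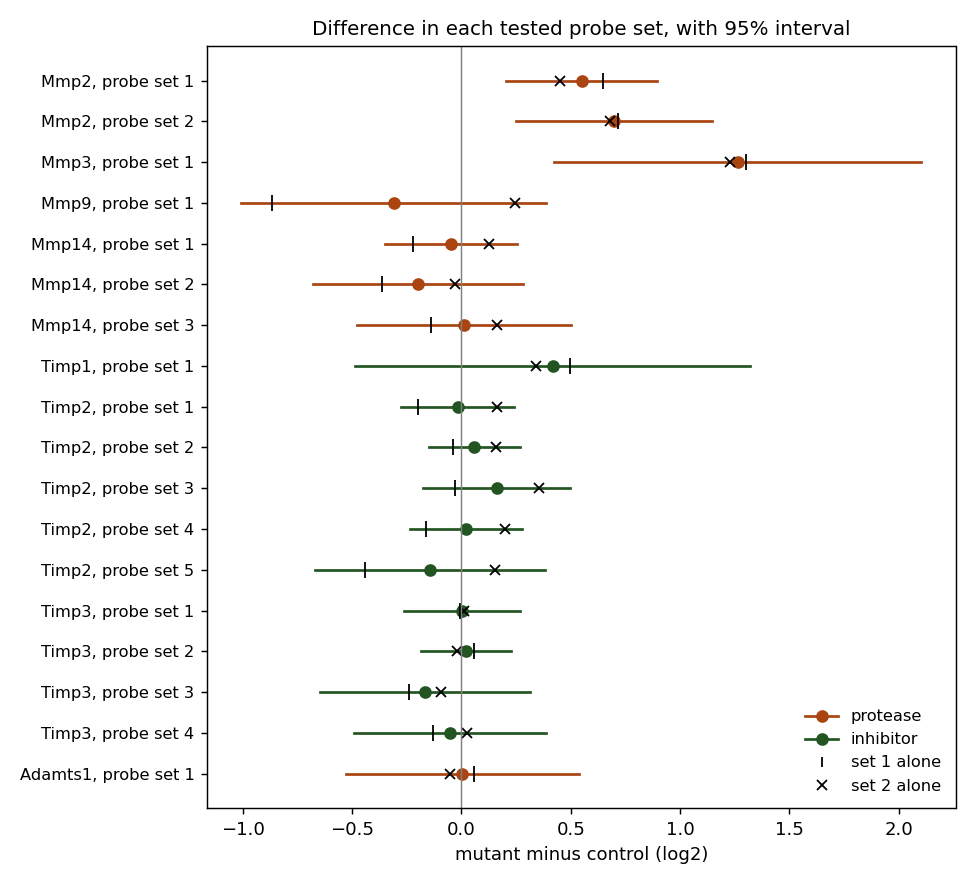
Mutant minus control difference on the log2 scale in each of the 18 tested probe sets, brightest first within a gene, with its 95% confidence interval from limma; the black signs give each array set alone. The intervals of Mmp2 and Mmp3 lie above 0 before adjustment for the 27023 probe sets tested, and all others include 0.

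The proteases were also set against the inhibitors they bind within each array, as the log2 ratio of the brightest probe sets. Only differences between arrays can be read from such ratios, since levels of different probe sets are not on a common scale, and no test was made. The ratio of Mmp2 to Timp2 was -4.30, -4.34, -3.53 and -3.97 in controls and -3.65, -3.29, -3.32 and -3.61 in mutants. It was 0.57 higher in mutants, 0.85 in set 1 and 0.28 in set 2, and again control 3 lay among them. With the next brightest Timp2 probe set it was 0.49 higher. There every mutant lay above every control, narrowly, with the lowest mutant at -3.39 and the highest control at -3.41. With the next Mmp2 probe set it was 0.715 higher and the groups overlapped. The ratio of Mmp3 to Timp1 was 0.26, 1.09, 1.81 and 0.79 in controls and 0.96, 2.00, 2.03 and 2.35 in mutants, 0.85 higher in mutants (0.81 in set 1 and 0.89 in set 2) with overlapping groups. The ratio of Mmp14 to Timp2 differed by -0.03, that of Adamts1 to Timp3 by 0.00, and that of Mmp9 to Timp1 by -0.73, of which -1.36 in set 1 and -0.10 in set 2.

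**Figure D4:**
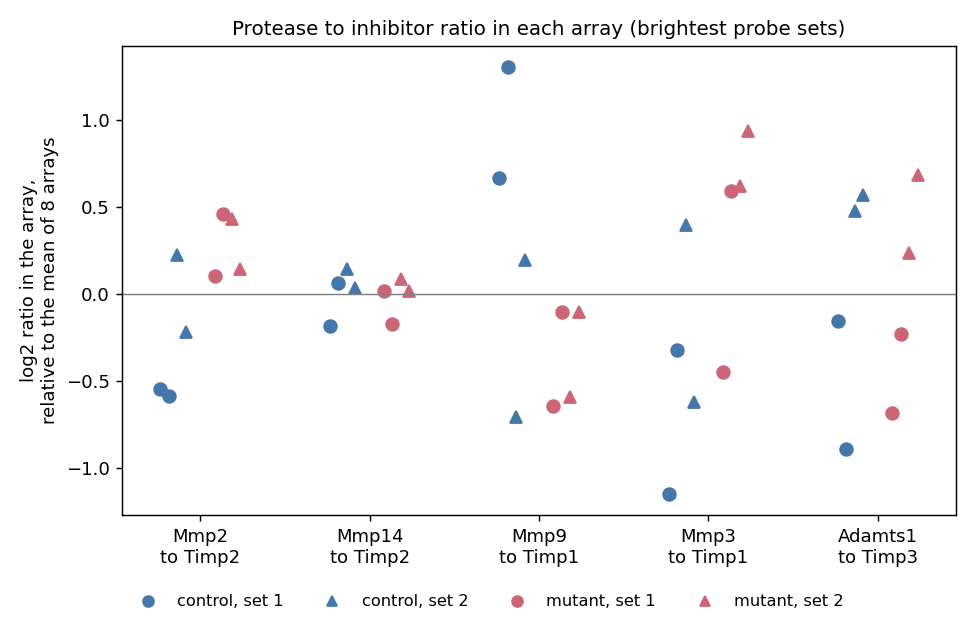
Log2 ratio of protease to inhibitor in each array, relative to the mean of the 8 arrays for that pair, from the brightest probe sets. The mutants lie 0.57 higher for Mmp2 to Timp2 and 0.85 higher for Mmp3 to Timp1, with at least 1 control within their range in both.

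The difference between mutants and controls went the same way in both sets in 6 of the 18 tested probe sets, against 55% of all probe sets tested. These 6 were the 2 of Mmp2, those of Mmp3 and Timp1, the second of Mmp14 and the third of Timp3. A test of the interaction between set and genotype gave 0 of the 18 at an adjusted p under 0.05, against 0.0518% of all probe sets tested. At an unadjusted p under 0.05 it gave 1, Mmp9, against 5.12%.

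The 2 array sets themselves differed in some members, and probe sets of 1 gene did not move alike. Between sets, 4 of the 18 had a limma adjusted p under 0.05, a share near the 21.4% of all probe sets tested. The members thus did not stand out from the table in this. Timp3 was lower in set 2 by 0.13 to 1.34 over its 4 probe sets, with the dimmest at 10.005 in set 1 and 8.67 in set 2 (difference -1.34, adjusted p = 0.00402). Of Mmp14, the dimmest of 3 probe sets was lower in set 2 (6.02 against 4.79, adjusted p = 0.00789), while the other 2 were higher there by 0.32 and 0.17. Of the 5 tested probe sets of Timp2, 4 had higher means in set 2, and 2 of these passed, with 0.40 (adjusted p = 0.0199) and 0.66 (adjusted p = 0.0075). Mmp3 was 1.22 higher in set 2 (adjusted p = 0.0509), a difference close in size to that between the groups. The labels do not explain the set number.

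**Figure D5:**
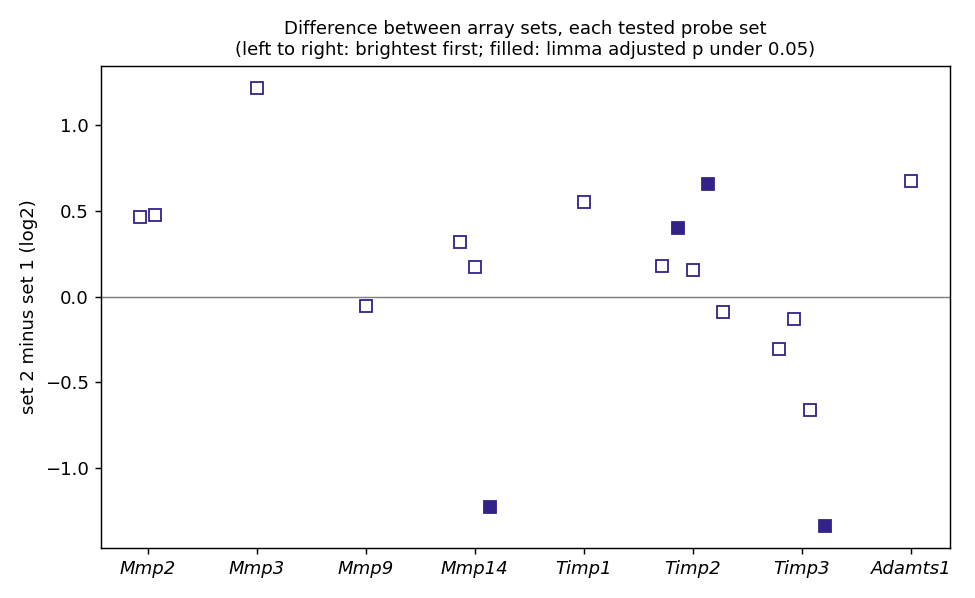
Set 2 minus set 1 on the log2 scale for each tested probe set, from the limma fit with genotype as the other term. The dimmest probe sets of Mmp14 and Timp3 are lower in set 2 by 1.23 and 1.34, while brighter probe sets of the same genes differ by 0.32 or less in size for Mmp14 and by 0.13 to 0.66 for Timp3.

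Over the 8 arrays, after the mean of each set was taken off, the members fell into patterns that are given as a description. Likeness was Pearson's r with n = 8 arrays, which share a common scaling and, for mutant 2, a common outlying array. The difference between mutants and controls was not taken off. Genes and markers that both differ between the groups therefore have a large r through that difference as well. Mmp2 and Mmp3 were most like each other among the members (0.92). Timp2 was most like Mmp9 (0.87) and Mmp14 (0.83), and Timp1 most like Timp3 (0.82). Adamts1 was closest to Timp3 (0.53). With the average of the fibroblast markers, the value was 0.97 for Mmp2, 0.97 for Mmp3 and 0.62 for Timp1, and -0.43 to 0.18 for the other 5. With the macrophage markers it was 0.87 for Mmp2, 0.83 for Mmp3 and 0.59 for Timp1, and with the smooth muscle markers -0.77, -0.74 and -0.14.

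Of all 12173 genes tested, those most like Mmp3 were Smoc2 (0.991), a secreted calcium-binding matrix protein, and the phospholipase gene Plcg2 (0.990). Smoc2 was 1.09 higher in mutants (SE 0.30, limma adjusted p = 0.44). Those most like Mmp2 were Tmem119 (0.973) and the lipid phosphatase gene Plpp2 (0.971). For Timp1 they were Ptgfrn (0.976) and Plekhf1 (0.965), for Timp2 the intermediate filament gene Nes (0.993) and Itpripl2 (0.987), and for Timp3 Snx33 (0.984) and the ribosomal protein gene Rplp0 (0.964). For Mmp9 they were the zinc transporter gene Slc39a1 (0.989) and the myosin light chain gene Myl12a (0.988), for Mmp14 Kremen1 (0.982) and Otud5 (0.981), and for Adamts1 Ppp2r2d (0.983) and Taf5l (0.968). Values picked as the highest over so few arrays are large by selection, and they carry no test.

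The other genes of matrix breakdown were taken from 8 lists of 102 genes, of which 63 were tested. None passed the adjusted threshold in either direction. At an unadjusted p under 0.05 there were 12 of the 63 (19.0%), 8 higher and 4 lower, against 10.4% of all genes tested. The brightest genes of each list are named, up to 3.

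The other matrix metalloproteinases were lower in mutants in 6 of 6 tested, with a median of -0.29 against -0.02 over all genes. The brightest were Mmp23 (-0.36, SE 0.26), Mmp17 (-0.32, SE 0.13), a membrane-anchored enzyme, and Mmp11 (-0.26, SE 0.20). In set 2 alone 3 were higher and 3 lower, with a median of -0.04. The collagenases Mmp8 and Mmp13 and the macrophage elastase Mmp12 were not among those tested. Of the other Adamts proteases 3 were higher and 6 lower (median -0.02), and the brightest were Adamts8 (-0.02, SE 0.17), Adamts15 (0.32, SE 0.11) and Adamts5 (0.38, SE 0.14), the last 2 with proteoglycans as substrates. Their median was -0.23 in set 1 and 0.20 in set 2.

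Of further metalloproteinase inhibitors, the membrane-bound Reck differed by -0.03 (SE 0.12) and Timp4 by 0.58 (SE 0.40). In the plasminogen system 3 of 5 tested were higher (median 0.06, and -0.01 with each array centred on its median). S100a10, a plasminogen receptor subunit, was at 11.54, 11.58, 11.66 and 11.67 in controls and 11.75, 12.34, 12.06 and 12.11 in mutants. Every mutant was above every control, which held for 1.43% of all probe sets tested. The difference of S100a10 was 0.45 (SE 0.12, limma adjusted p = 0.4321). Its partner Anxa2 differed by 0.11 (SE 0.08) and the plasminogen activator gene Plat by 0.06 (SE 0.18). The urokinase gene Plau was not among those tested.

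Among cathepsins, which are mostly lysosomal proteases, and their cystatin inhibitors, 11 of 14 had a higher mean in mutants (median 0.09). With each array centred on its median, this was 7 of 14 with a median of 0.01. The brightest were the cystatin C gene Cst3 (0.17, SE 0.06), Ctsb (0.03, SE 0.07) and Ctsl (0.21, SE 0.11). Ctss, a protease of macrophages named after its value was seen, had the largest difference of the list at 1.58 (SE 0.57, limma adjusted p = 0.4905), in arrays in which the macrophage markers were higher too. It was 2.89 in set 1 and 0.27 in set 2, where mutant 3 (7.60) lay below control 3 (7.90). The part of macrophage content in it was not tested.

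Of 11 matrix substrates, 5 were higher and 6 lower (median -0.02). The brightest, Col3a1 (0.05, SE 0.06), Col4a1 (-0.10, SE 0.05) and Col1a2 (-0.02, SE 0.10), encode the chains of fibrillar and basement membrane collagens. Others in the list, named after their values were seen, had larger differences in both directions. The proteoglycan gene Dcn, also a fibroblast marker here, was 1.01 higher (SE 0.24) and the basement membrane gene Nid1 0.83 higher (SE 0.23), while versican, Vcan, was at -0.89 (SE 0.41) and elastin, Eln, at -0.43 (SE 0.14). Their limma adjusted p-values were 0.387, 0.4321, 0.5516 and 0.4625. The differences of Vcan and Eln were -1.66 and -0.73 in set 1 and -0.12 and -0.14 in set 2. Of genes for activation and clearance of the proteases, 0 of 5 were higher, with Cav1 at -0.12 (SE 0.06), Bsg, an inducer of metalloproteinases, at -0.05 (SE 0.06), and the clearance receptor Lrp1 at -0.01 (SE 0.14). In set 2 alone 3 of the 5 were higher, with a median of 0.01, and without mutant 2 it was 2 of the 5. Among cytokines and transcription factors that induce metalloproteinase genes, 3 of 11 were higher and 8 lower (median -0.05). Without mutant 1 it was 6 higher and 5 lower, with a median of 0.03. The brightest were Jund (-0.16, SE 0.06) and Jun (-0.04, SE 0.12), both parts of AP-1, and Ets2 (0.13, SE 0.11).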

How the data were processed

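RNA of 8 aorta samples was hybridised to Affymetrix mouse arrays from 2 ug of total RNA, per the labels' protocols. The authors deposited a log2 value for each probe set and array, between 0.9 and 15.82, and the log2 scale was inferred from that range. The submitters' processing notes name GCOS and give no version. How the authors corrected background, normalized and summarized is not stated in the labels. Values were used as deposited, and no per-sample column was left out. The platform annotation gave 1 symbol to 34945 probe sets, several to 932 and none to 9160.

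Probe sets were ranked by mean, and the dimmest 40% were dropped, so that 27023 with a mean of at least 2.97 stayed. Each was fitted in R 4.3.3 by limma 3.58.1 on genotype plus array set, a mean-variance trend and two-sided p-values, Benjamini-Hochberg adjusted over all 27023, at 0.05. SE is limma's moderated standard error. A gene with several probe sets was represented by the brightest. Arrays are numbered within a group in the order of the samples, so equal numbers pair nothing. The members, the 8 pathway and 8 marker lists, and the tests were chosen with earlier results of these data known. Named genes were the members, the 3 brightest tested genes of each pathway list, the 2 genes most like each member, and Srf and Tagln. Genes outside this rule, neutrophil markers aside, are said in the text to have been named after their values were seen, or were named as not tested. As alternatives, the filter was dropped or raised to 60%, arrays were quantile normalized or centred on their medians, the set term was removed, the variance trend was removed or made robust, arrays were weighted, and single sets were used or single arrays dropped. For this comparison the fit was also tested on simulated data, 5 tables with 27023 probe sets and 200 planted changes each. It recovered 20.9% of changes of 0.5 log2 units, 58.5% of 1 and 87.9% of 2, with 3.2 false calls per table. The simulated errors were normal and independent between probe sets, with no outlying array, so these rates may not hold for the real arrays. Figures were drawn with Python 3.11.15. Promoter windows came from RefSeq (GRCm38.p6) by symbol, for 6 of the 8 members.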

Additional observations from a re-analysis of the deposited data

Results flagged for a closer look

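Control 3 of the brightest Mmp14 probe set, at 9.40, stood apart from the other 3 controls, which were at 9.14 to 9.18. It was flagged because its gap to the nearest control made up a share of 0.846 of the range of the group. This was 1 of 36 groups of 4 arrays looked at, and chance flags about 1 in 20. The mutants of set 2 were at 9.45 and 9.38.

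The difference of Mmp9 had opposite signs in the array sets. In set 1 both mutants lay below both controls (-0.86), and in set 2 both lay above both controls (0.24). The interaction of set and genotype was 1.11, with an unadjusted limma p of 0.0454 and an adjusted p of 0.8235, and so did not pass.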

How the results depend on the processing

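Over the alternatives tried, 0 member probe sets passed the adjusted threshold under any of them, and the lowest limma adjusted p was 0.1028, for Mmp3 without control 3. Both probe sets of Mmp2 (0.45 to 0.68 and 0.54 to 0.86), Mmp3 (0.92 to 1.63) and Timp1 (0.11 to 0.72) kept their direction in all 18 alternatives. Changing the filter, the set term or the variance model leaves the estimates of this balanced design unchanged. Those alternatives could not change a direction. With no replicate block, that is without the array set as a term, 0 member probe sets were called. The set number is shared by 2 arrays of each group and is a block of arrays, not a pairing of animals. Over all probe sets, calls between genotypes numbered 0, but 10 with array weights (3 higher, 7 lower), and 0 to 11 when 1 array was left out, with 11, all higher, without control 3. The interaction of set and genotype gave 14 calls, 36 with no filter, 1 with the stricter filter, and 0 to 2750 when 1 array was left out, chosen after seeing the data, with 2750 without mutant 1 and 62 without mutant 2. The ratio of Mmp14 to Timp2 was -0.18 with the next Mmp14 probe set.

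The small differences of the other members changed sign under some settings, and the cause was not tested. Probe sets 1 to 5 are counted from the brightest. With array weights, Mmp14 was at 0.0596 (probe set 1) and 0.00498 (probe set 2), Timp2 at 0.0462 (1) and 0.0396 (5), and Timp3 at 0.0531 (3) and 0.151 (4). With median centring, which moved the median of all genes from -0.02 to -0.09, Mmp14 was at -0.06 (3), Timp2 at -0.0125 (2) and -0.0525 (4), Timp3 at -0.07 (1) and -0.0525 (2), and Adamts1 at -0.0675. With quantile normalization Mmp14 was at -0.0213 (3). In set 1 alone Mmp14 was at -0.14 (3), Timp2 at -0.04 (2), -0.03 (3) and -0.16 (4), and Timp3 at -0.005 (1). In set 2 alone Mmp9 was at 0.245, Mmp14 at 0.125 (1), Timp2 at 0.165 (1) and 0.155 (5), Timp3 at -0.02 (2) and 0.025 (4), and Adamts1 at -0.05. Leaving out 1 array in turn gave -0.126 to 0.077, -0.342 to 0.014 and -0.125 to 0.211 for Mmp14 (1, 2, 3). It gave -0.076 to 0.071, -0.074 to 0.088 and -0.30 to 0.067 for Timp2 (1, 4, 5). It gave -0.086 to 0.094, -0.062 to 0.086, -0.331 to 0.025 and -0.193 to 0.119 for Timp3 (1, 2, 3, 4), and -0.206 to 0.194 for Adamts1.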
